A study of Sus scrofa with 34 samples.

Results

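The livers of 6 piglets fed oxidized oil (OO) were compared with the livers of 6 piglets fed the control diet by RNA sequencing, and all genes were examined in both directions, with attention to lowered genes and to functions other than fat oxidation. The comparison used all liver genes above a minimum count, 13831 of the 25880 genes counted, and 12 of the 24 liver libraries in a series of 34. The pigs were weaned crossbred piglets of both sexes, sampled on day 28 of feeding. Control pigs received a basal diet, and OO pigs received a diet with rapeseed oil that had been oxidized by heating. The other liver groups, used here as a repeat of the oil comparison, received the phytogenic feed additive (PFA), a blend based on essential oils, without the oil (6 pigs) or with it (OO + PFA, 5 pigs, with 1 further library set aside for its read quality). Each diet was fed in 1 pen, so diet and pen cannot be told apart, and the oil was added in a much larger amount than in the control diet, so added fat and its oxidation cannot be told apart.

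The liver makes fat from carbohydrate when food is plentiful and burns fatty acids in mitochondria and peroxisomes when fat is the main fuel. Hepatocytes also make most plasma proteins, break down amino acids, and clear drugs and toxins through cytochrome P450 enzymes, conjugating enzymes and transporters. Oxidized oils bring peroxides and aldehydes into the diet, and antioxidant enzymes such as superoxide dismutases and peroxiredoxins act against such compounds.

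Between 19839171 and 41469893 read pairs fell on genes in the OO libraries and between 23109323 and 42092064 in the control libraries. Levels are given below as CPM, counts scaled to the size of the library, which are not divided by gene length and therefore serve to compare samples, not genes. The hepatocyte markers fixed for the tissue summed to 102500 to 185500 CPM in control and 115300 to 149100 CPM in OO pigs, and none of them was at 0. A library measure separated the diets. Read pairs on no gene amounted to 9.20 to 12.6 per 100 on genes in OO and 13 to 23.5 in control pigs, without overlap. The dependence of a library's levels on the GC content of the genes also varied. This slope was negative in 3 OO pigs and positive in the other 3, up to 0.42, and ranged from -0.21 to 0.08 in control pigs. The part of either measure in the gene changes was not tested beyond the fits named below.

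**Figure D1:**
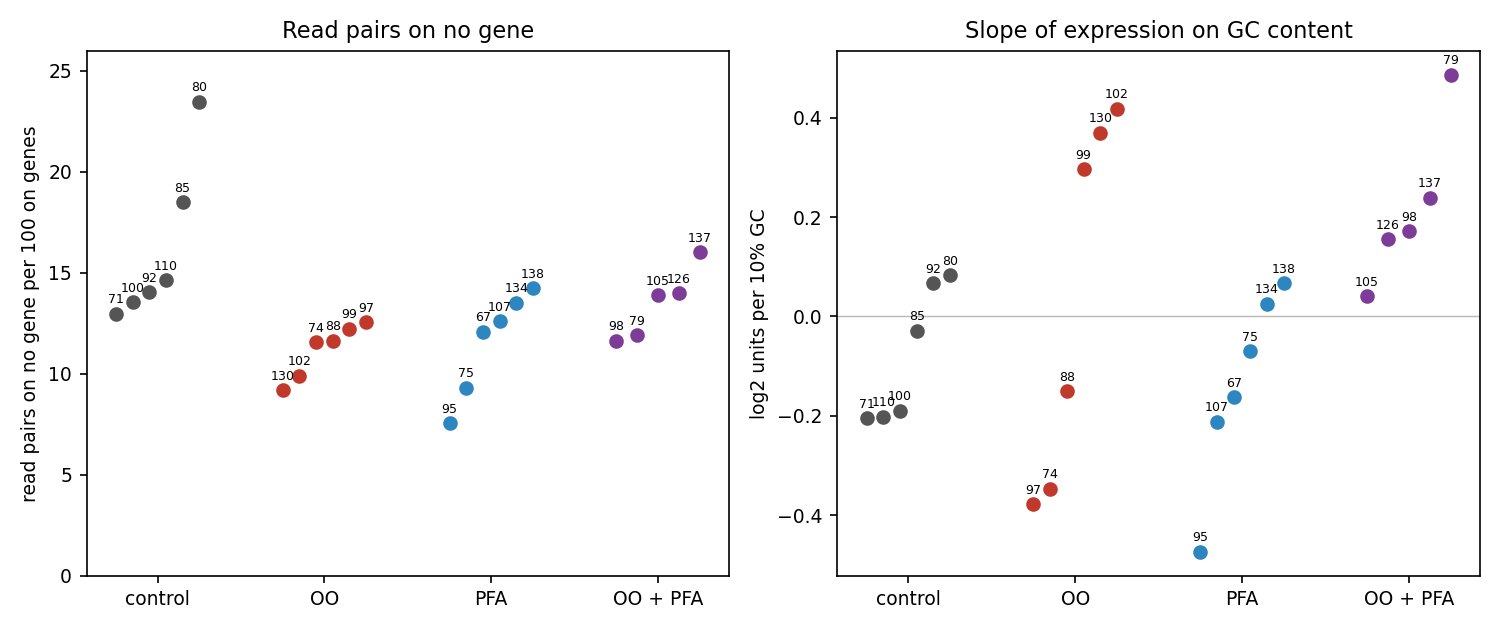
Read pairs on no gene per 100 on genes (left) and the slope of expression on GC content in log2 units per 10% GC (right), with 1 numbered point for each pig by diet. Read pairs on no gene lay between 9.20 and 12.6 in OO pigs and between 13 and 23.5 in control pigs, and the slope had both signs among OO pigs.

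At an adjusted p of at most 0.05 in edgeR's quasi-likelihood test, 190 genes were raised in OO pigs (1.37% of the genes tested) and 185 were lowered (1.34%). Counts of called members in the gene lists and families below are to be read beside these shares, and no list was tested against them. Raised genes changed more. At least 2-fold differences were found for 109 raised genes (0.788%) and 44 lowered genes (0.318%), and the median log2 fold change was 1.11 for raised and -0.70 for lowered genes, against 0.06 for all genes. All 6 OO pigs lay above all 6 control pigs in 108 genes (0.781% of those tested) and below them in 202 genes (1.46%).

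The oil comparison was repeated between OO + PFA and PFA pigs, which share no library with the first. There, 172 genes were raised (1.24%) and 46 lowered (0.333%). Of the 190 genes raised in OO, 185 (97.4%) lay in the same direction and 73 (38.4%) passed the test again, with a median log2 fold change of 0.83. Of the 185 genes lowered in OO, 56.8% (exact 95% interval 49.3 to 64.0) lay in the same direction, and their median log2 fold change was -0.05. Of all genes, 49.7% lay below 0 there, and 57.1% had the same sign in both comparisons. The interval treats genes as independent and does not cover the spread between pigs. Among genes called lowered with 1 pig left out, the share ran from 50.8% (without OO pig 99) to 74.3% (without control pig 80). Beside 0.333% of all genes lowered there, 10 of the genes lowered in OO (5.41%) passed again. Chosen here after their values were seen, the 8 of these with a symbol were ITGB3, KCNMA1, NUGGC, PRDX6, PRELID2, RAB3D, SULT1C2 and THRSP. The difference between both oil effects passed the test in 0 genes (smallest adjusted p = 0.0505, edgeR, which PCK1 had). Of the 13831 genes tested, 1881 had an unadjusted p under 0.05 for this difference, and DESeq2 called 150 genes.

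**Figure D2:**
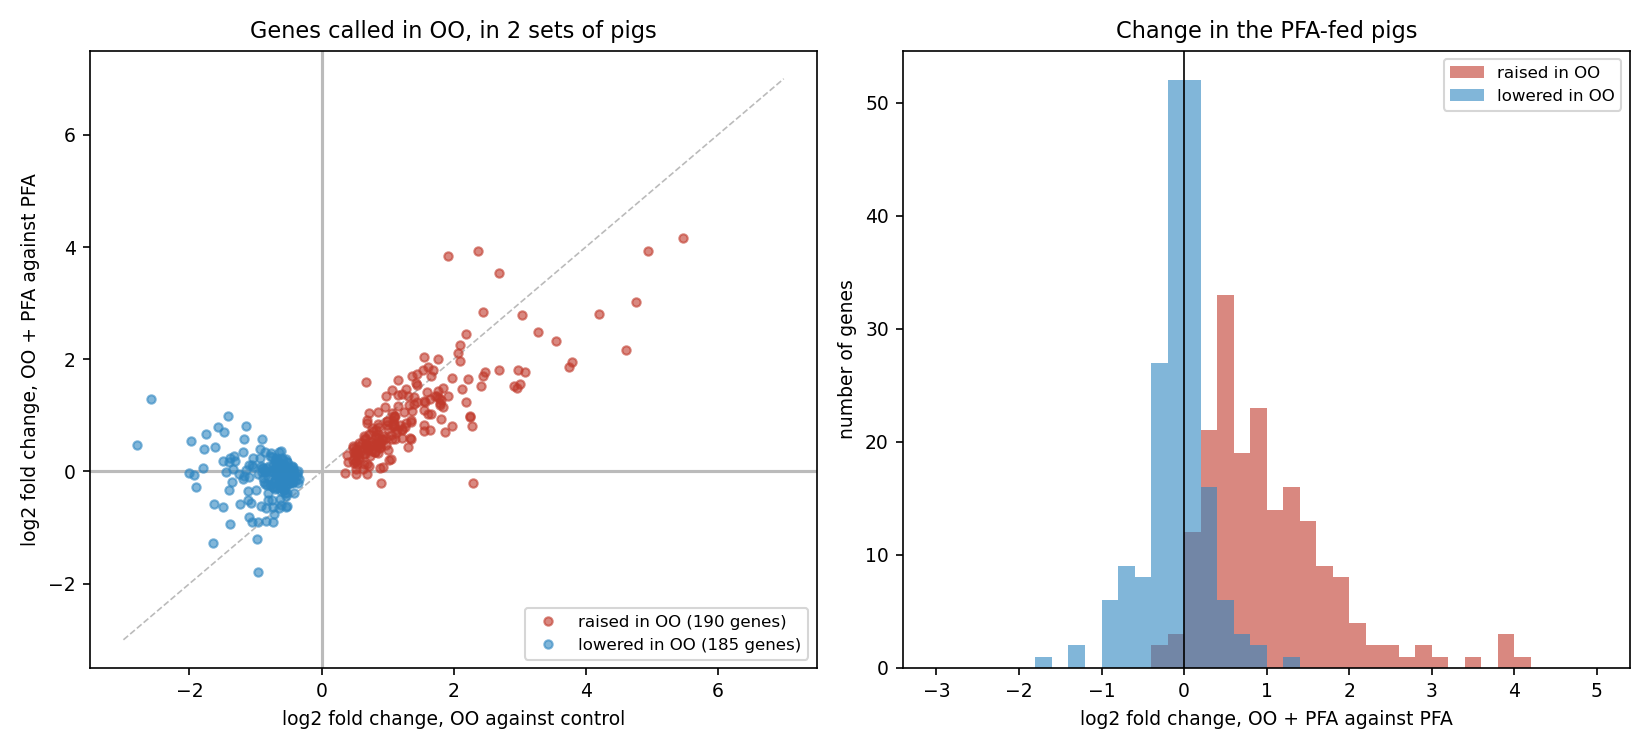
Left, log2 fold change of each called gene in OO against control pigs (horizontal axis) and in OO + PFA against PFA pigs (vertical axis), with equal changes on the dashed line; right, number of called genes by their log2 fold change in the PFA-fed pigs. Raised genes lie above 0 in the PFA-fed pigs in 185 of 190 cases, and 56.8% of lowered genes lie below 0.

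With read pairs on no gene added as a term to the fit, an alternative chosen after the data had been seen, 40 genes were raised and 27 lowered, 16 of the latter among the 185. Since this measure did not overlap between OO and control pigs, the fit cannot tell its part from that of diet. Of the 27 genes lowered in that fit, 92.6% had the same direction in PFA-fed pigs. The share over all genes was not counted in that fit, so this value has no background. Both oil comparisons there also shared the slope of the added term. Among the lowered genes named here, SULT1C2, PKLR, THRSP, CORIN, PRDX6, ZBTB5 and NDRG2 passed in that fit. NDRG2, a stress-responsive gene abundant in liver, had 472.5, 554.5 and 614.0 CPM in OO and 674.7, 749.4 and 806.4 CPM in control pigs, without overlap (-0.43, SE 0.10, adjusted p = 0.021). When each of the 12 pigs was left out in turn, the call held every time for SULT1C2, PKLR, CORIN, ITIH1, ATP8B3, DEF6, SNORA9, ZBTB5, ZNF592, NUGGC and the row named SERPINA1, and it was lost at least once for the other lowered genes named. Library titles had the form PigLiv (4 control and 3 OO pigs) or PL (2 and 3), which the labels do not explain. In PigLiv and PL libraries apart, log2 fold changes were -0.79 and -2.13 for ITIH1 and -0.80 and -2.26 for ATP8B3. They were -1.37 and -0.25 for THRSP, -1.56 and -1.75 for SULT1C2, and -1.02 and -1.25 for PKLR.

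Genes of carbohydrate-to-fat conversion were lowered in part. PKLR, which encodes the liver pyruvate kinase at the end of glycolysis, had 92.0, 127 and 150 CPM as the lowest, median and highest OO values, against 193.7, 270.1 and 337.1 CPM in control pigs. All OO pigs lay below all control pigs, and the log2 fold change was -1.06 (SE 0.18, adjusted p = 0.0013). THRSP, which encodes a nuclear protein known to promote fat synthesis, had 319.9, 460.0 and 562.5 CPM in OO and 464.9, 944.4 and 1114 CPM in control pigs. Its groups overlapped, and it fell by 0.97 on the log2 scale (SE 0.22, adjusted p = 0.019). THRSP was lower in OO + PFA than in PFA pigs as well, at -1.20 (adjusted p = 0.0081), whereas PKLR was at -0.56 there (adjusted p = 0.11).

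ACACA, the acetyl-CoA carboxylase that commits carbon to fatty acids, had 110.6, 125.8 and 167.0 CPM in OO and 131.7, 213.0 and 335.3 CPM in control pigs. The groups overlapped, the log2 fold change was -0.75 (SE 0.20, adjusted p = 0.044), and the call was lost when any of 9 of the 12 pigs was left out. The list of fat synthesis genes had 22 tested members, of which these 3 fell and 0 rose, with a median of -0.09. Other known members, given here after their values were seen, did not pass. FASN, the fatty acid synthase, had a median of 423.6 CPM in control and 375.5 CPM in OO pigs (log2 fold change -0.18, adjusted p = 0.85). The 3 OO pigs with a positive GC slope had 512.2, 730.2 and 835.2 CPM of FASN, and the other 3 had 96.2, 152.2 and 238.8 CPM. Control pigs had 311.5 to 839.9 CPM. SCD, which makes monounsaturated fatty acids, was at 0.13 (adjusted p = 0.84), and ACLY, which supplies cytosolic acetyl-CoA, at -0.22 (adjusted p = 0.53). MLXIPL, the carbohydrate-sensing factor that is known to bind near PKLR, THRSP and ACACA, was at -0.77 (adjusted p = 0.17). OO pigs with a positive GC slope also lay above the other OO pigs in MLXIPL, and below them in ACACA and SCD.

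The 250 bases before the RefSeq gene start are shown for the 3 lowered genes of fat synthesis because they are textbook targets of MLXIPL. They were read from the RefSeq sequence of Sscrofa11.1, for PKLR at chr4:94536728-94536977 (plus strand), for THRSP at chr9:12479663-12479912 (plus strand) and for ACACA at chr12:38875068-38875317 (minus strand). Capitals mark CACGGG, a core of the carbohydrate response element, on either strand.
PKLR: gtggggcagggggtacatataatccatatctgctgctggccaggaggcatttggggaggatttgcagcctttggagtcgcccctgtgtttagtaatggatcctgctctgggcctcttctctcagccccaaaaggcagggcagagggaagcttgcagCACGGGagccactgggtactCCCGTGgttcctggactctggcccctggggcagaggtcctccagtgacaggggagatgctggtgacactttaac
THRSP: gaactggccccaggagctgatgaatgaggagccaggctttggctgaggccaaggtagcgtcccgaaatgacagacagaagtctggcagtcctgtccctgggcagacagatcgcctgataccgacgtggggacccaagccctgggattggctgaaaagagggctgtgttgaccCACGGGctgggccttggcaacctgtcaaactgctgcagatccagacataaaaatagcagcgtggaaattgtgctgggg
ACACA: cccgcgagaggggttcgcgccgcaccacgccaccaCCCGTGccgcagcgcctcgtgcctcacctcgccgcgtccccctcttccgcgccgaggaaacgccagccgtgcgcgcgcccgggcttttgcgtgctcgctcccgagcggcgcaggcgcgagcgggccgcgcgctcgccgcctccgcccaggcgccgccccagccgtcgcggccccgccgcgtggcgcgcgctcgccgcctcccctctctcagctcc
The core began 94 and 74 bases before the start in PKLR, 78 in THRSP and 215 in ACACA. It was found in 15 of 140 lowered promoters (10.7%), 19 of 164 raised promoters (11.6%) and 10.8% of all 11023 promoters read, so its share among lowered genes was near that of all genes. The E-box CACGTG was found in 4.29% of lowered, 7.32% of raised and 7.48% of all promoters. The motifs were chosen with the results known, and a match is a description of letters only.

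Among the genes lowered most were several of low level. ETNPPL, which breaks down phosphoethanolamine, had 2.63, 23.3 and 51.6 CPM in OO against 57.2, 93.7 and 146 CPM in control pigs. No OO pig reached a control pig, and the log2 fold change was -1.93 (SE 0.45, adjusted p = 0.021). In PFA-fed pigs ETNPPL was at -0.06 (adjusted p = 0.95). SULT1C2, a sulfotransferase, had 4.26, 4.82 and 6.77 CPM in OO and 9.99, 15.2 and 24.95 CPM in control pigs. Its groups did not overlap, it fell by 1.64 on the log2 scale (SE 0.20, adjusted p = 2.8e-05), and it fell again in PFA-fed pigs (-1.27, adjusted p = 0.0016). CORIN, the protease that activates natriuretic peptides in the heart, was at -1.38 (SE 0.27, adjusted p = 0.0069), with 7.59 to 23.4 CPM in OO and 23.8 to 42.5 CPM in control pigs.

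The remaining members of the 12 genes lowered most were SNORA9 (-2.01), NEB (-1.98), OVGP1 (-1.63), DEF6 (-1.57), IZUMO1 (-1.49), ATP8B3 (-1.40), TMEM25 (-1.40), ITIH1 (-1.36) and CABYR (-1.33), each with an adjusted p between 0.0028 and 0.043. NEB encodes a muscle filament protein, and IZUMO1 and CABYR are known from sperm. Apart from ITIH1 these genes had control medians of 1.82 to 13.6 CPM. In PFA-fed pigs none of these 9 genes passed, with log2 fold changes from -0.57 to 0.78.

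**Figure D3:**
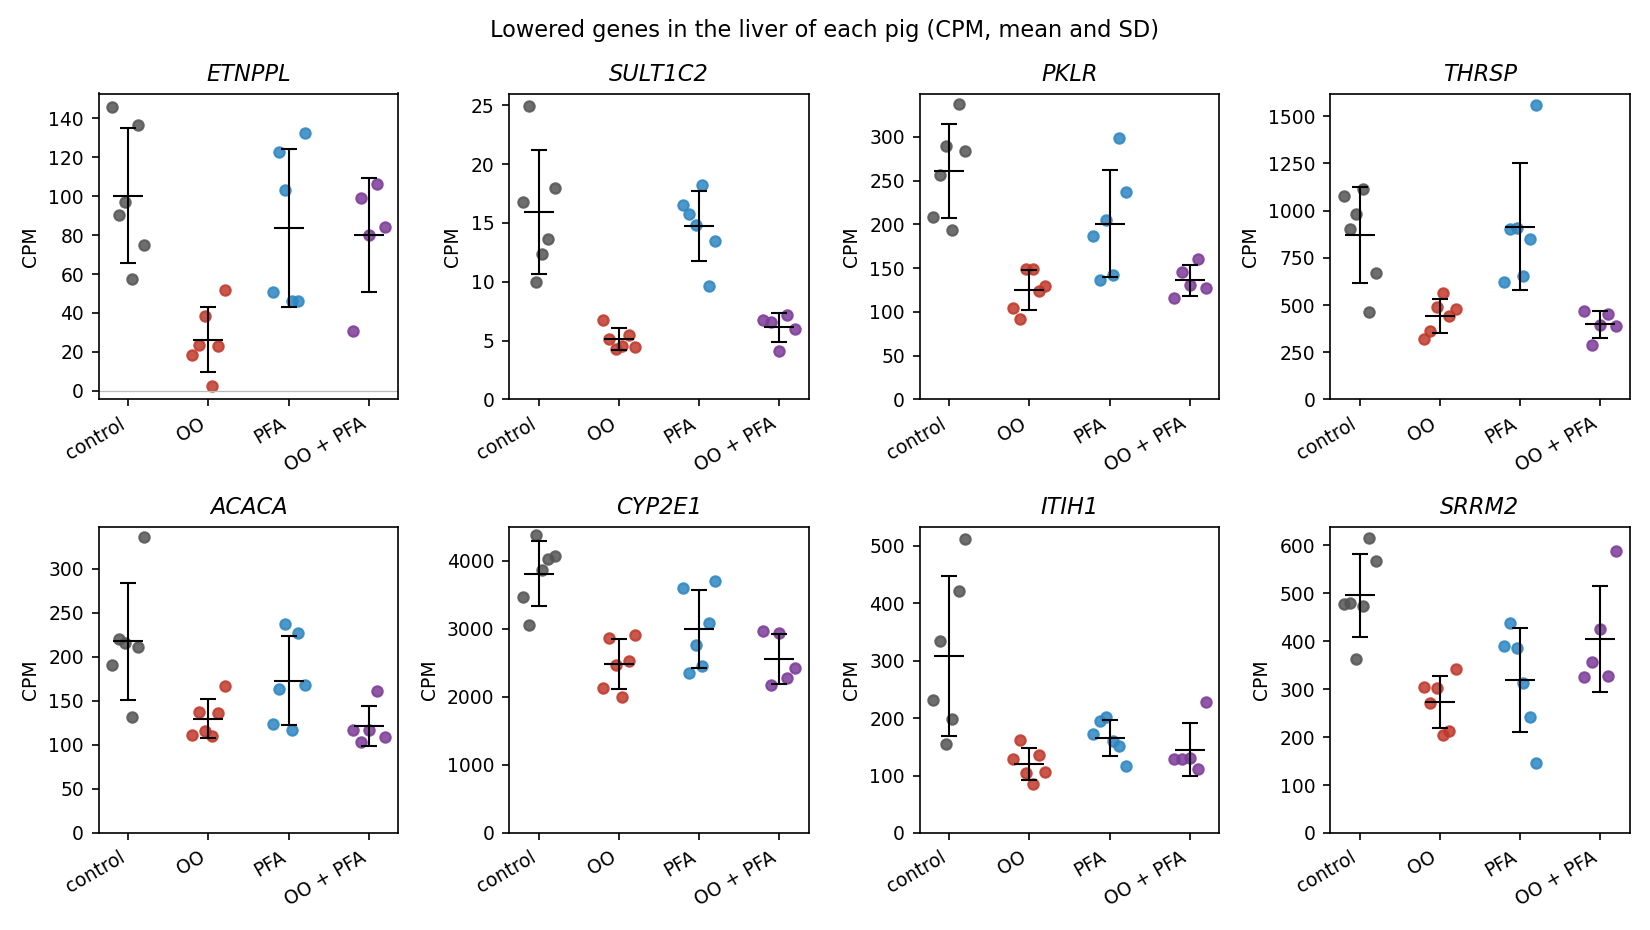
CPM of 8 lowered genes by diet on linear axes, with a point for each pig and bars for the mean and SD. All OO pigs lie below all control pigs in ETNPPL, SULT1C2, PKLR, CYP2E1 and SRRM2, and the groups overlap in THRSP, ACACA and ITIH1.

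Genes of drug and toxin clearance were lowered among the most abundant called genes. CYP2E1, the cytochrome P450 that oxidizes ethanol and ketones, had 2005, 2500 and 2902 CPM in OO against 3062, 3947 and 4377 CPM in control pigs. The groups did not overlap, and CYP2E1 fell by 0.62 on the log2 scale (SE 0.14, adjusted p = 0.021). FMO5, a flavin-containing monooxygenase, had 504.6 to 719.9 CPM in OO and 972.7 to 1307 CPM in control pigs, without overlap (-0.81, adjusted p = 0.032). The receptors NR1I3 (-0.57, adjusted p = 0.025) and NR1I2 (-0.51, adjusted p = 0.047), which switch on drug-metabolizing genes, fell as well. The list of P450 genes and their receptors had 13 tested members, with 3 lowered, 0 raised and a median of -0.01. None of CYP2E1, FMO5, NR1I3 and NR1I2 passed in PFA-fed pigs. None passed with read pairs on no gene as a term, where the log2 fold changes were -0.67 for CYP2E1, -0.99 for FMO5, -0.44 for NR1I3 and -0.31 for NR1I2.

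Of 18 tested conjugating enzymes of the list, 1 rose, 1 fell and 16 were not called, with a median of 0.08. The lowered sulfotransferase SULT1C2, described above, was not a member of this list. SULT1B1, a sulfotransferase of phenols and thyroid hormone, rose to 15.2, 16.9 and 19.2 CPM in OO from 3.97, 4.86 and 6.86 CPM in control pigs, without overlap (log2 fold change 1.75, SE 0.22, adjusted p = 3e-05). It rose again in PFA-fed pigs (1.35, adjusted p = 0.0016). GSTZ1, which acts in tyrosine breakdown, fell by 0.49 on the log2 scale (adjusted p = 0.021), and was at -0.07 in PFA-fed pigs (adjusted p = 0.75). CYP7A1, the rate-limiting enzyme of bile acid synthesis, was at -0.65 and did not pass (adjusted p = 0.26).

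A few transporters and amino acid enzymes were lowered, and others were raised. SLC22A7, an organic anion transporter, had 340.2, 472.1 and 550.3 CPM in OO and 513.7, 731.7 and 850.6 CPM in control pigs, with overlap (-0.58, adjusted p = 0.045). SLC17A1, a phosphate and urate transporter, fell by 1.03 (adjusted p = 0.025) and SLC38A3, a glutamine transporter, by 0.59 on the log2 scale (adjusted p = 0.028). In PFA-fed pigs these 3 transporters did not pass, at -0.32 for SLC22A7, 0.23 for SLC17A1 and -0.30 for SLC38A3. SLC1A1, a glutamate transporter, rose (0.98, adjusted p = 0.013). Of the 29 tested transporters of the list, 3 fell and 1 rose, beside 1.34% and 1.37% of all genes, and the list median was -0.09.

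TDO2, which starts tryptophan breakdown, fell from a median of 677.4 to 417.4 CPM (log2 fold change -0.57, adjusted p = 0.046). CTH, which makes cysteine from cystathionine, fell by 0.60 on the log2 scale (adjusted p = 0.045), and CSAD, which acts in taurine synthesis, rose (0.79, adjusted p = 0.019). Neither TDO2 (-0.06) nor CTH (-0.24) passed in PFA-fed pigs. In the list of urea cycle and amino acid breakdown, 1 of 41 tested genes rose and 1 fell, beside 1.37% and 1.34% of all genes. CTH was the called gene of 20 tested in methionine metabolism. CPS1, which feeds ammonia into the urea cycle, had a log2 fold change of -0.37 (adjusted p = 0.45).

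Secreted proteins were lowered in few cases. ITIH1, a heavy chain of the inter-alpha-trypsin inhibitor, had 85.3, 117 and 162 CPM in OO and 155, 282 and 511 CPM in control pigs (-1.36, SE 0.25, adjusted p = 0.0028). Among its relatives, looked at after the values were seen, ITIH2 was at -0.39, ITIH3 at -0.93 and ITIH4 at -0.71, with adjusted p of 0.17, 0.071 and 0.29. The other called acute phase gene was a row named SERPINA1 with a control median of 3.34 CPM (-1.25, adjusted p = 0.015). Neither ITIH1 (-0.19) nor the row named SERPINA1 (-0.05) passed in PFA-fed pigs. Of 23 acute phase genes tested 2 fell and 0 rose, and of 38 genes of complement and coagulation 0 were called by edgeR, with 7 at an unadjusted p under 0.05.

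Several lowered genes act in the nucleus, and these were grouped after their values were seen. SRRM2, a large protein of nuclear speckles, had 204.3, 287.0 and 342.6 CPM in OO and 362.6, 477.9 and 614.5 CPM in control pigs, without overlap (-0.86, adjusted p = 0.032). PNN (-0.84), SUGP2 (-0.78), SRSF11 (-0.66), HNRNPDL (-0.52) and HNRNPL (-1.19), which act in splicing or RNA binding, fell too, with adjusted p from 0.021 to 0.046. Of 10 tested serine and arginine rich splicing factors 1 fell and 0 rose (median -0.29), and of 14 heterogeneous nuclear ribonucleoproteins 2 fell and 0 rose (median -0.13). Of 258 tested ZNF and ZBTB zinc finger genes 8 fell and 0 rose, beside 1.34% and 1.37% of all genes, with a family median of -0.07. ZBTB5 was the clearest of them, with 12.1 to 14.4 CPM in OO and 19.0 to 21.8 CPM in control pigs (-0.63, SE 0.10, adjusted p = 0.00091). Read pairs on no gene were lower in all OO than in all control pigs, so a fit with them as a term cannot tell their part from that of diet. In that fit SRRM2, PNN, SUGP2, SRSF11, HNRNPDL and HNRNPL had adjusted p from 0.41 to 0.66. In PFA-fed pigs these 6 genes lay between -0.01 and 0.34.

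Of 31 tested genes in the list of endoplasmic reticulum stress and amino acid response, 2 rose (ASNS and TRIB3) and 0 fell, with a median of 0.01 and, in PFA-fed pigs, of -0.24. ASNS, the asparagine synthetase, had 11.01, 16.8 and 20.7 CPM in OO and 3.57, 5.10 and 8.42 CPM in control pigs. The groups did not overlap (log2 fold change 1.56, SE 0.22, adjusted p = 0.00015), and ASNS rose again in PFA-fed pigs (1.24, adjusted p = 0.0041). TRIB3, a stress-induced pseudokinase, rose by 1.64 (SE 0.37, adjusted p = 0.017). FGF21, a liver hormone of fasting and stress, had 15.2, 31.2 and 51.7 CPM in OO and 4.41, 8.95 and 18.2 CPM in control pigs, with overlap (1.77, SE 0.44, adjusted p = 0.031). GDF15, a stress hormone, rose as well (1.91, adjusted p = 0.047) at a median of 0.88 CPM in OO against 0.16 CPM. PCK2, the mitochondrial phosphoenolpyruvate carboxykinase, rose by 0.86 (adjusted p = 0.0078), while PCK1, its cytosolic counterpart, was at -0.60 (adjusted p = 0.35). In PFA-fed pigs PCK1 rose by 2.47 (adjusted p = 0.0012), from 164.3 to 411.6 CPM in PFA to 823.1 to 4072 CPM in OO + PFA pigs. Its adjusted p for the difference between both oil effects was 0.0505 (edgeR). Chosen after the values were seen, SLC3A2 (0.85, adjusted p = 0.029), GARS1 (0.53, adjusted p = 0.039) and SARS1 (0.50, adjusted p = 0.0093) also rose. GARS1 and SARS1 were the called genes of 17 tested aminoacyl-tRNA synthetases of the cytosol, whose median was 0.15.

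The promoters of FGF21 (chr6:54082403-54082652, plus strand) and PCK2 (chr7:75197614-75197863, minus strand) are shown because both hold the letters TGATGNAA, known from amino acid response elements. In the lines below capitals mark this element on either strand and, in FGF21, also AGGTCA, a nuclear receptor core.
FGF21: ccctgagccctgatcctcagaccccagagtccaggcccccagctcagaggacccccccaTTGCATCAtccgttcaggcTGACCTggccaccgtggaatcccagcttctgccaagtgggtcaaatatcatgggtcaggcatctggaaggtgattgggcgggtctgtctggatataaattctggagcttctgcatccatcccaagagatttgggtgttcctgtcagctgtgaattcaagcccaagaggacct
PCK2: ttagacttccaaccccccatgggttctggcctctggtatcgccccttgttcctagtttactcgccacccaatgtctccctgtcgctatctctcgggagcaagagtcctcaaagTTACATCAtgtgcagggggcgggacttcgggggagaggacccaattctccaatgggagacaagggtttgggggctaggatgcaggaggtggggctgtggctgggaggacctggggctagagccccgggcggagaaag
The element began 191 bases before the start in FGF21 and nearer the start in PCK2, and AGGTCA 172 bases before the start in FGF21. TGATGNAA was found in 6 of 164 raised promoters (3.66%), 1 of 140 lowered promoters (0.714%) and 1.76% of all. ASNS and TRIB3 were not among these 6 raised genes. AGGTCA was found in 11.6% of raised, 10.7% of lowered and 10.9% of all promoters.

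The genes raised most were ranked among those with a symbol in the annotation used and a mean of at least 1 CPM in OO pigs. NNAT, neuronatin, had no symbol there and was named from the study's primer list, and its log2 fold change of 5.47 (SE 0.46, adjusted p = 1.2e-07) was above all of them. DHRS4, a peroxisomal retinol and carbonyl reductase with close gene copies that may share its reads, had 331.9, 612.2 and 1088 CPM in OO and 46.1, 51.4 and 66.3 CPM in control pigs (log2 fold change 3.55, SE 0.21, adjusted p = 1.8e-10). GAREM2, an adaptor of growth factor signalling, rose by 4.76 (SE 0.59) from a control median of 0.39 CPM to 7.95 CPM. GABRQ, a subunit of GABA receptors, rose to 49.7 to 105.1 CPM from 5.60 to 19.3 CPM (2.97, adjusted p = 1.8e-05). G0S2, an inhibitor of triglyceride lipase, rose by 3.03 (adjusted p = 0.0013), PLEKHG6 by 3.01 (adjusted p = 2.6e-06) and SLC25A45, a mitochondrial carrier, by 2.45 (adjusted p = 0.00057). DHRS4, GAREM2, GABRQ, G0S2, PLEKHG6 and SLC25A45 all rose again in PFA-fed pigs.

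The other members of the 12 genes raised most differed among OO pigs along with the GC slope of the libraries. CLDN3, a tight junction protein, had 21.2, 47.3 and 66.0 CPM in the 3 OO pigs with a positive slope and 1.36, 1.94 and 4.23 CPM in the other 3, beside 1.87 to 4.27 CPM in control pigs. The log2 fold change of 2.98 (SE 0.78, adjusted p = 0.043) thus came from 3 of 6 pigs. TOLLIP (2.41), TSSC4 (2.69), METRNL (2.48), SLC16A11 (2.69) and CDC42EP5 (4.21) passed with adjusted p from 0.045 to 0.049, and each lost its call when any of 8 to 10 of the pigs was left out. Across the 190 raised genes, the 3 pigs with a positive slope lay above the other 3 OO pigs in 78 (41.1%) and below them in 7 (3.68%). Across the 185 lowered genes, they lay below the other 3 in 31 (16.8%) and above them in 7 (3.78%). The same shares over all genes tested were not counted, so these counts have no background to be set against.

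**Figure D4:**
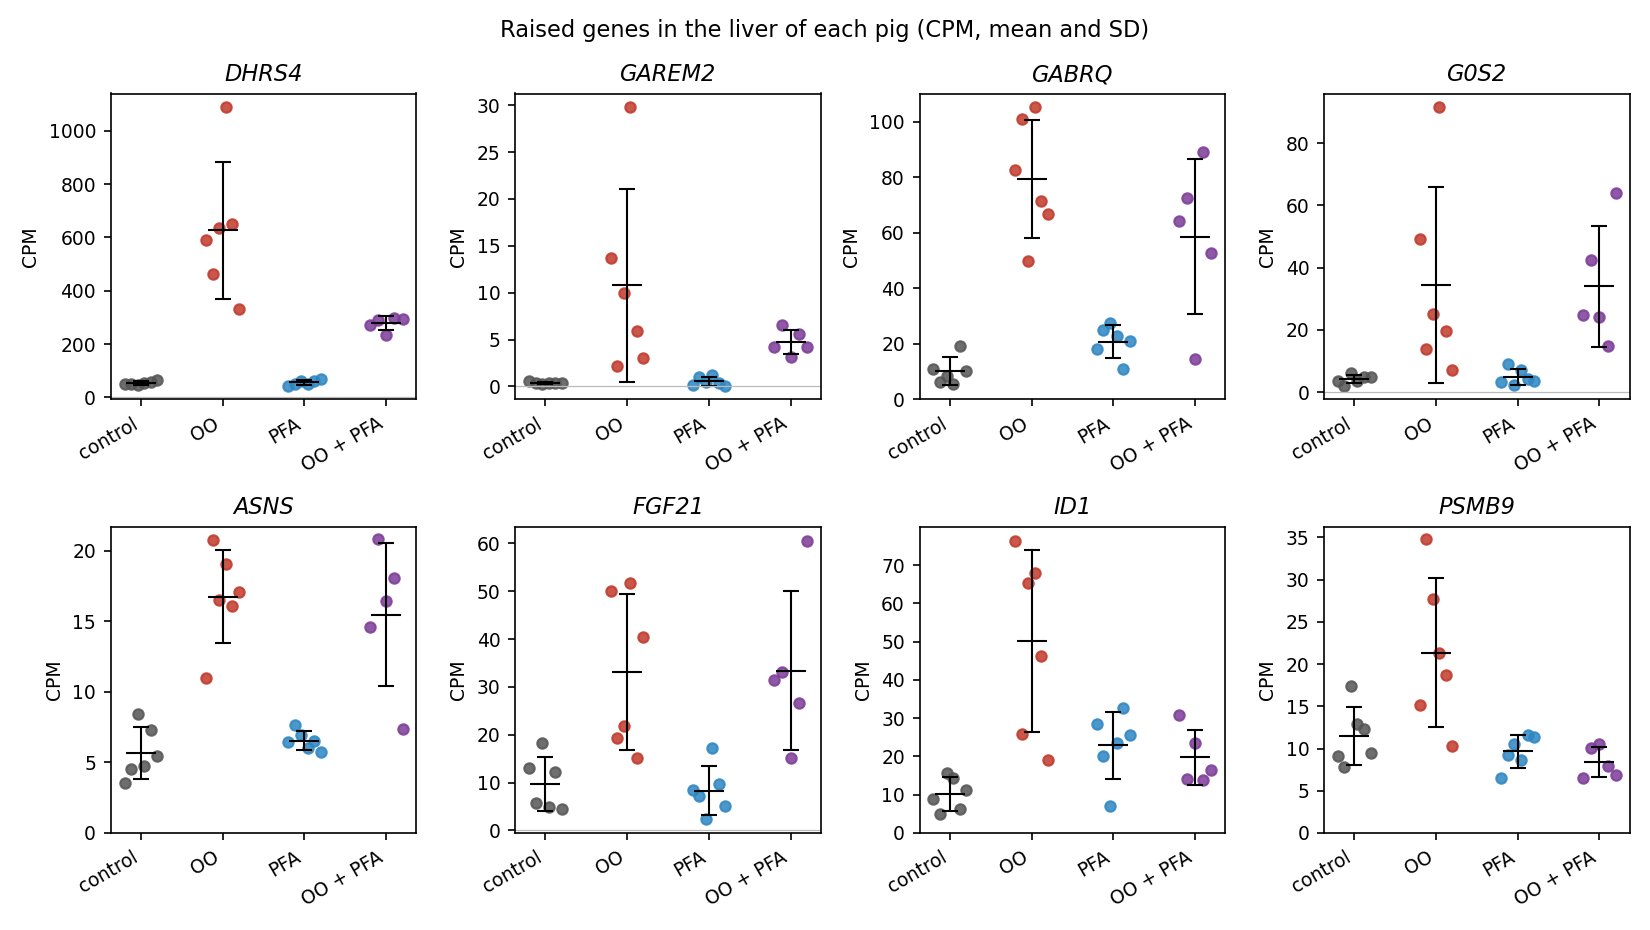
CPM of 8 raised genes by diet on linear axes, with a point for each pig and bars for the mean and SD. All OO pigs lie above all control pigs in DHRS4, GAREM2, GABRQ, G0S2, ASNS and ID1, and the groups overlap in FGF21 and PSMB9.

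ID1, an inhibitor of differentiation that responds to bone morphogenetic proteins, had 19.0, 55.9 and 76.4 CPM in OO and 4.86, 10.04 and 15.7 CPM in control pigs. The groups did not overlap (2.30, SE 0.37, adjusted p = 0.00091), and ID1 was at -0.21 in PFA-fed pigs (adjusted p = 0.76). The immunoproteasome subunits PSMB8 (0.70), PSMB9 (0.89) and PSMB10 (0.83) rose, with adjusted p of 0.047, 0.046 and 0.036, and were the 3 called genes of 32 tested in the proteasome list. In PFA-fed pigs they were at -0.04, -0.20 and 0.64 and did not pass, and the calls were lost when any of 10, 9 and 7 of the 12 pigs was left out. ISG20, an interferon-induced nuclease, was the called gene of 40 tested interferon-stimulated genes (1.36, adjusted p = 0.045), beside 1.37% of all genes raised. GADD45A, a growth arrest gene, rose by 1.34 (adjusted p = 0.00084).

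In the list of superoxide and peroxide removal, 1 of 19 tested genes rose, 1 fell and 17 were not called, with a median of 0.14. SOD1, the cytosolic superoxide dismutase, rose (0.89, adjusted p = 0.00018), and PRDX6, a peroxiredoxin that reduces phospholipid peroxides, fell. PRDX6 had 110.2, 126.1 and 136.8 CPM in OO and 143.0, 186.5 and 196.9 CPM in control pigs, without overlap (-0.53, SE 0.14, adjusted p = 0.047). PRDX6 fell in PFA-fed pigs as well (-0.62, adjusted p = 0.038). Of 27 tested Nrf2 targets, 0 were called by edgeR and 2 had an unadjusted p under 0.05, with a median of 0.23. NQO1, a classical Nrf2 target, was at 0.28 (adjusted p = 0.56).

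For scale, 11 of 19 tested genes of mitochondrial beta-oxidation rose and 0 fell, with a median of 0.86. ELOVL2, which lengthens polyunsaturated fatty acids, rose by 2.13 (SE 0.35, adjusted p = 0.0011). In all, 12 of the 36 gene lists held a lowered gene, 19 held a raised gene and 10 held neither. Neutrophil markers had a median of 0.90 over 5 tested genes with 0 called by edgeR, and their summed level was 5.15 to 24.2 CPM in OO and 3.36 to 8.65 CPM in control pigs. Cholangiocyte markers summed to 79.5 to 226 CPM in OO and 56.4 to 97.1 CPM in control pigs, with 0 of 8 called. Adipocyte markers summed to 18.5 to 69.7 CPM in OO and 14.6 to 19.0 CPM in control pigs, with PLIN1 raised and LEP at 0. From control to OO, mean CPM went from 5.34 to 18.9 for CFD, 8.64 to 13.3 for CIDEC, 1.29 to 3.42 for FABP4 and 1.21 to 4.23 for PLIN1. The means of ADIPOQ (0.024 and 0.030 CPM) and LPL (0.055 and 0.056 CPM) differed little. The part of these 3 cell types in the gene changes was not tested. In whole liver, fewer cells of a type and less RNA per cell cannot be told apart.

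**Figure D5:**
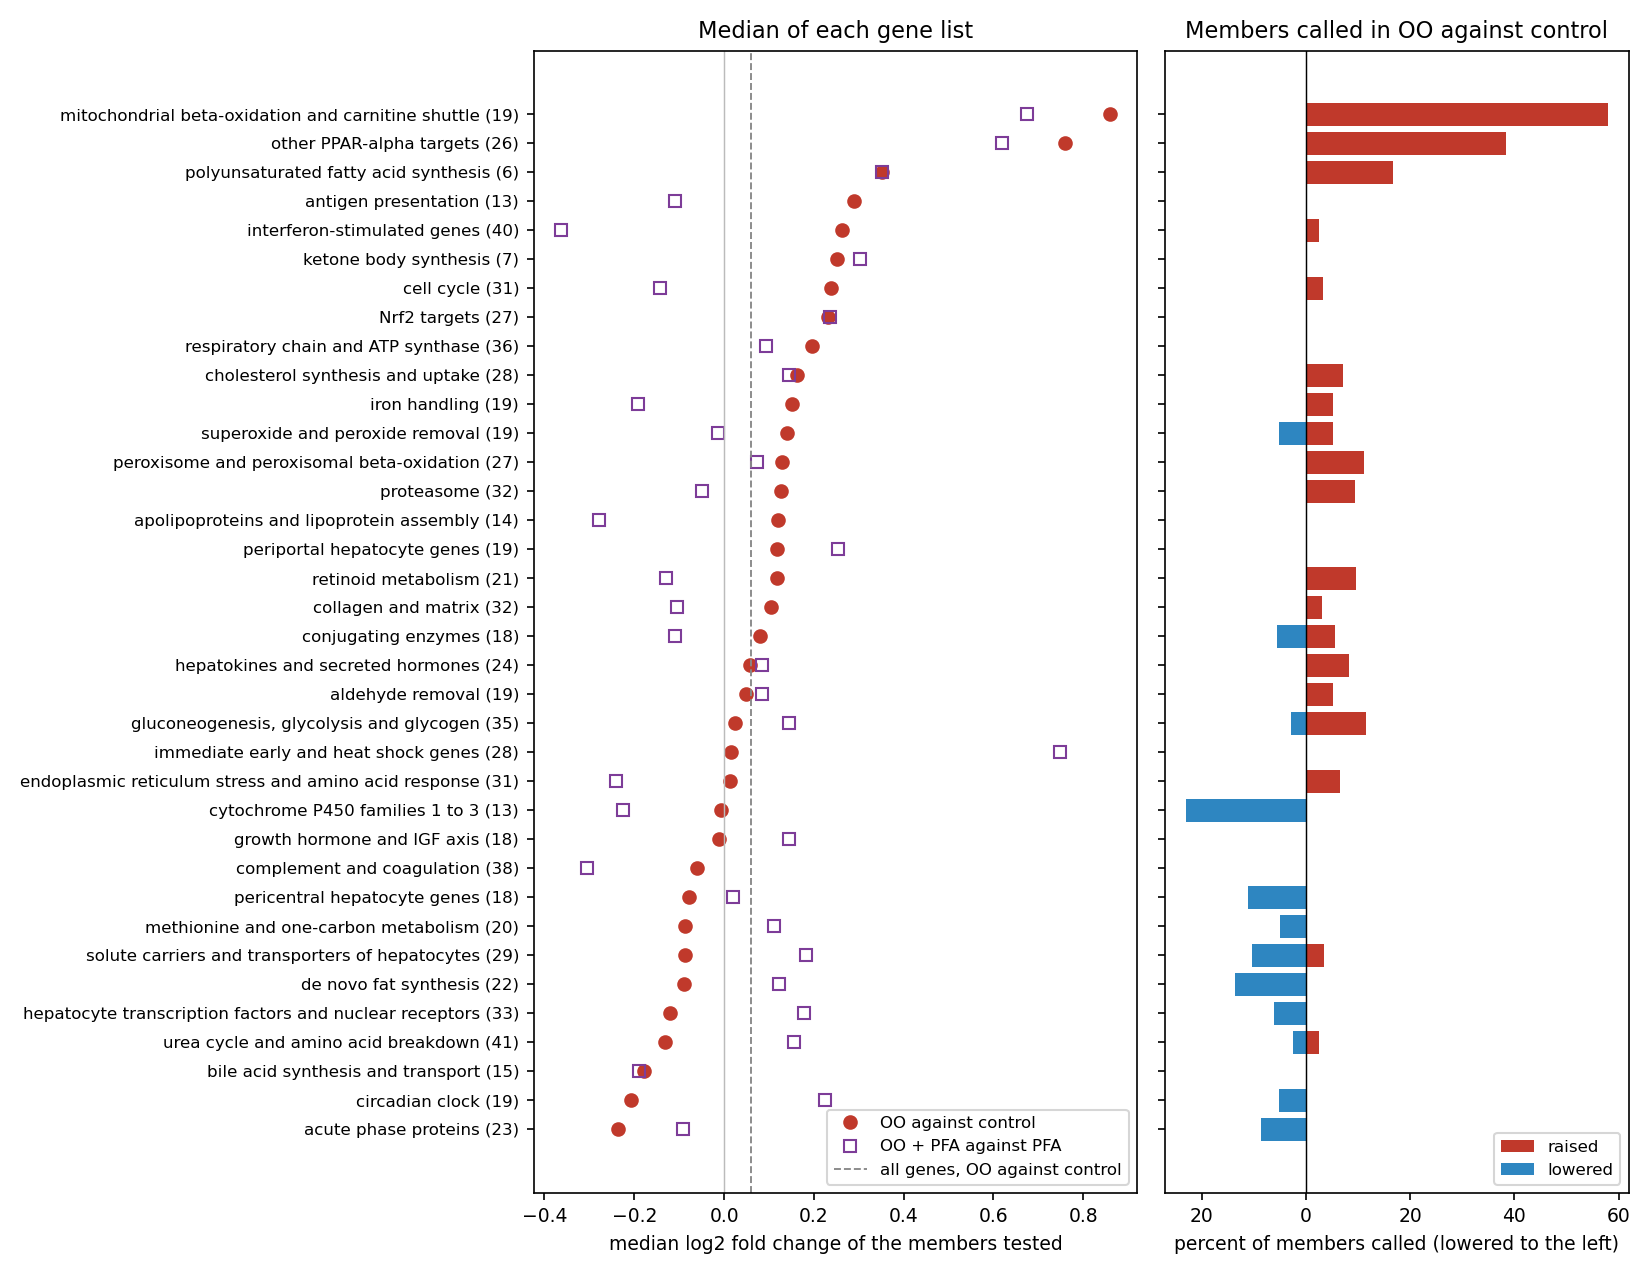
Left, median log2 fold change of the tested members of each gene list (number in brackets) in OO against control pigs (circles) and OO + PFA against PFA pigs (squares), with the median of all genes as a dashed line; right, percent of members called in OO against control. The median in OO is 0.86 for mitochondrial beta-oxidation, -0.09 for fat synthesis and 0.06 for all genes.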

How the data were processed

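Liver RNA was sequenced from stranded poly(A) libraries. Per the labels and the methods of the study, the authors aligned reads with STAR (version 2.6.1d) to Sscrofa11.1 and counted them per gene with HTSeq. The deposited values were raw counts. The annotation release and the strand option are not given in the sources used here. Samples were grouped by their source labels. Counts were fitted with edgeR (version 4.0.16) in R (version 4.3.3), by the quasi-likelihood test with TMM scaling and Benjamini-Hochberg adjustment over all genes, on 23 liver libraries in 4 groups. Calls needed an adjusted p no higher than 0.05. Genes with low counts were removed by the default rule of filterByExpr. Rows that name no gene stayed out of library sizes and tests. P-values cover the spread between pigs of 1 pen per diet.

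Members, gene lists and motifs were chosen with earlier results of these data known. Named were the 12 genes changed most in each direction among called genes with a symbol and a mean of at least 1 CPM in the higher group, the 10 most abundant lowered genes, and up to 4 called genes of each list with its rate-limiting member. Genes outside that rule are said to be chosen after their values were seen. Alternatives were DESeq2 (version 1.42.0), other filters, scalings, sample sets and terms, and each pig left out, with 2 terms added after the data had been seen. The scripts were tested on simulated data. 1 lowered gene is not reported here.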

Additional observations from a re-analysis of the deposited data

Results flagged for a closer look

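In 16 of 248 groups of 6 pigs, formed by the control and OO levels of the named genes, 1 pig stood apart from the other pigs by Dixon's test at its 95% level, and chance flags about 1 in 20 groups. Among control pigs, pig 80 was highest in DEF6 (7.40 CPM), SRSF11 (101 CPM) and NR1I2 (242 CPM) and lowest in PRDX6 (143 CPM). Pig 71 was highest in NEB (5.78 CPM) and GARS1 (41.6 CPM) and lowest in the row named SERPINA1 (1.26 CPM). FMO5 was highest in control pig 85 (1307 CPM) and SLC25A45 in control pig 92 (7.65 CPM).

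Among OO pigs, pig 97 was highest in CORIN (23.4 CPM) and CPS1 (1390 CPM), pig 88 in OVGP1 (2.03 CPM) and ELOVL2 (222 CPM), and pig 130 in IGF1 (18.4 CPM) and SLC25A20 (75.6 CPM). SLC1A1 was lowest in OO pig 99 (11.02 CPM).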

How the results depend on the processing

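No paired analysis was possible because OO and control livers came from different pigs that share no number. The cause of the changes below was not tested, and smaller sample sets also hold fewer pigs. The genes raised in OO and the genes lowered in OO are given as shares of the genes tested, which were 1.37% and 1.34% (190 and 185 genes) in the reported fit, with 109 and 44 at least 2-fold. DESeq2 called 3.41% and 4.40% (471 and 608 genes, 266 and 112 at least 2-fold) and 150 genes whose oil effect differed with PFA. The GC slope as a term gave 3.88% and 3.93% (536 and 544 genes), with 93 lowered at least 2-fold and 67.96% of called genes in the same direction in PFA-fed pigs, against 77.3%. Read pairs on no gene as a term gave 0.289% and 0.195% (40 and 27 genes, 30 and 10 at least 2-fold) and 97.01%. The share of all genes with the same direction was counted in the reported fit alone. OO and control libraries alone gave 0.793% and 0.687%, with 66 raised at least 2-fold. Libraries titled PL gave 0.0353% and 0.0212% (5 and 3 genes, all at least 2-fold) and 47 genes that differed with PFA, and those titled PigLiv gave 0.613% and 0.209% (85 and 29 genes, 55 and 12 at least 2-fold) and 99.1%. All 24 libraries gave 0.83% and 0.80% (114 and 110 genes). GC correction gave 2.89% and 4.45% (319 and 491 genes), 70.5% and 6 differing genes, but is void as a check, since only 79.7% of genes had a GC value. Those genes uncorrected gave 25 lowered at least 2-fold. Differing genes numbered 3 with Y-linked counts as a term, 2 with DESeq2 size factors and 2 without a filter. The share of raised among called genes was 50.7% as reported, 40.3% with DESeq2 size factors, 39.4% with GC correction, 62.5% in PL and 74.6% in PigLiv libraries. Leaving out 1 pig gave 0.746% (without OO pig 130) to 5.75% (without OO pig 97) raised and 0.463% to 3.85% lowered genes, with the same pigs at both ends, and 62 to 398 raised at least 2-fold. Lowered genes of at least 2-fold numbered 20 (without control pig 80) to 110 (without OO pig 97). The same direction in PFA-fed pigs held for 68.4% to 89.1%, and 0 to 5 genes differed with PFA. The call held with each pig left out for 12 of 48 lowered and 35 of 55 raised named genes, and no called gene among those named reversed under any of these settings.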

Other observations

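Genes for the protein synthesis machinery of mitochondria were among the raised genes, a family looked at after the values were seen. Of 64 tested mitochondrial ribosomal proteins, 4 rose and 0 fell, namely MRPS9 (log2 fold change 0.53), MRPL15 (0.56), MRPL38 (0.67) and MRPS18B (0.40), and the median of the family was 0.34 against 0.06 for all genes. Of all genes tested, 1.37% rose. In PFA-fed pigs the median of the mitochondrial ribosomal family was 0.09. The call was lost when any of 8 pigs was left out for MRPS18B and any of 6 for MRPL38, and it held for MRPS9 and MRPL15. Of 38 tested mitochondrial carriers of family 25, 4 rose and 0 fell, namely SLC25A20 (0.93), SLC25A33 (1.32), SLC25A34 (1.16) and SLC25A45 (2.45), while 15 of the 38 lay below 0 and the median was 0.06, as for all genes.

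Relative to control pigs, the genes lowered in OO had a median log2 difference of -0.67 in OO, -0.39 in PFA and -0.47 in OO + PFA pigs, and the raised genes had 0.99, 0.11 and 0.86. All these differences share the control pigs.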
